A study of Mus musculus with 6 samples.

Results

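The genes described here build the GABA and glycine synapse of the mouse retina: the enzymes that make and break down GABA, the transporters of both transmitters and of chloride, the receptor subunits, and the postsynaptic proteins around gephyrin. The 29 genes were listed by name for these roles, but with earlier results of these data known, among them the study's report of Gphn. Each was read on its brightest probe set, a group of short DNA probes against 1 transcript, among those that map to the gene alone (highest mean log2 signal over the 6 arrays), and Gphn on all of its probe sets. Of the 29 genes, 28 have such a probe set, 69 probe sets in all, out of 18193 genes on the array with a probe set of their own. Gabbr2, a subunit of the GABA-B receptor, has none and is not analysed here.

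The arrays compared OC1-KO retinas with WT retinas. OC1-KO embryos come from a line deficient in the transcription factor Onecut1 in the whole animal, not in the retina alone, and were collected as littermates with WT embryos, both on a mixed strain background that started from R1 embryonic stem cells and Swiss mice and was crossed to C57Bl/6. Retinas were isolated at E14 according to the sample labels, while the series title and the article give E14.5. Total RNA from the retinas of a single embryo was hybridised to each array, with 3 arrays per genotype and the embryos of each genotype numbered 1 to 3, so that a p-value measures the spread between embryos. The question was which genes differ in expression when Onecut1 is missing. All values are log2 MAS5 signals, a measure of probe set brightness after scaling of each array, and they compare arrays for 1 probe set but not 1 probe set with another.

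GABA and glycine are the main inhibitory transmitters of the mature retina, where they are used above all by amacrine cells, and horizontal cells can also make GABA. Glutamate decarboxylase makes GABA, a vesicular transporter loads either transmitter, and membrane transporters clear both from the cleft. GABA-A and glycine receptors are chloride channels that gephyrin holds beneath the postsynaptic membrane, and the chloride level of the cell, set by cation-chloride cotransporters, decides whether their opening depolarises or hyperpolarises it, which shifts as neurons mature.

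At this age 14 of the 28 measured genes were bright enough to be tested and 14 were dim. A probe set was tested where its mean log2 signal exceeded 7 in either genotype, and 13 of the 14 genes passed through both genotypes, while Glrb passed through WT alone. No gene of the synapse differed between OC1-KO and WT retinas at an adjusted p under 0.05 in the limma fit, a linear model that pools variance information across probe sets. The same fit called 0 of all 20888 probe sets tested, as did limma with the embryo number as a block and the two-tailed test of the study's methods after adjustment. Without adjustment the test of the methods called 0 of the 14 genes by their brightest probe sets and 316 of all probe sets, among them 1 of the other probe sets of Gphn. At an unadjusted p under 0.05, 0 of the 14 genes were higher in OC1-KO (0.369% of all probe sets tested) and 0 were lower (0.637% of all).

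The 14 genes were divided evenly, with 7 higher in OC1-KO retinas and 7 lower, among them Glrb, which was tested through WT alone. Their log2 differences (OC1-KO minus WT) lay between -0.75 (Gad2) and 0.23 (Gabarapl1) with a median of -0.00, against a median of -0.01 and a 5th to 95th percentile of -0.32 to 0.26 over all probe sets tested. Of the 14, 13 (all but Gad2) lay within 0.30 of no difference. Standard errors were 0.13 to 0.42 with a median of 0.19. The 95% intervals ran from -0.25 to 0.38 for the narrowest, Abat, and from -0.98 to 0.99 for the widest, Slc6a11, so differences of these sizes could not be told from none with 3 arrays per genotype.

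**Figure D1:**
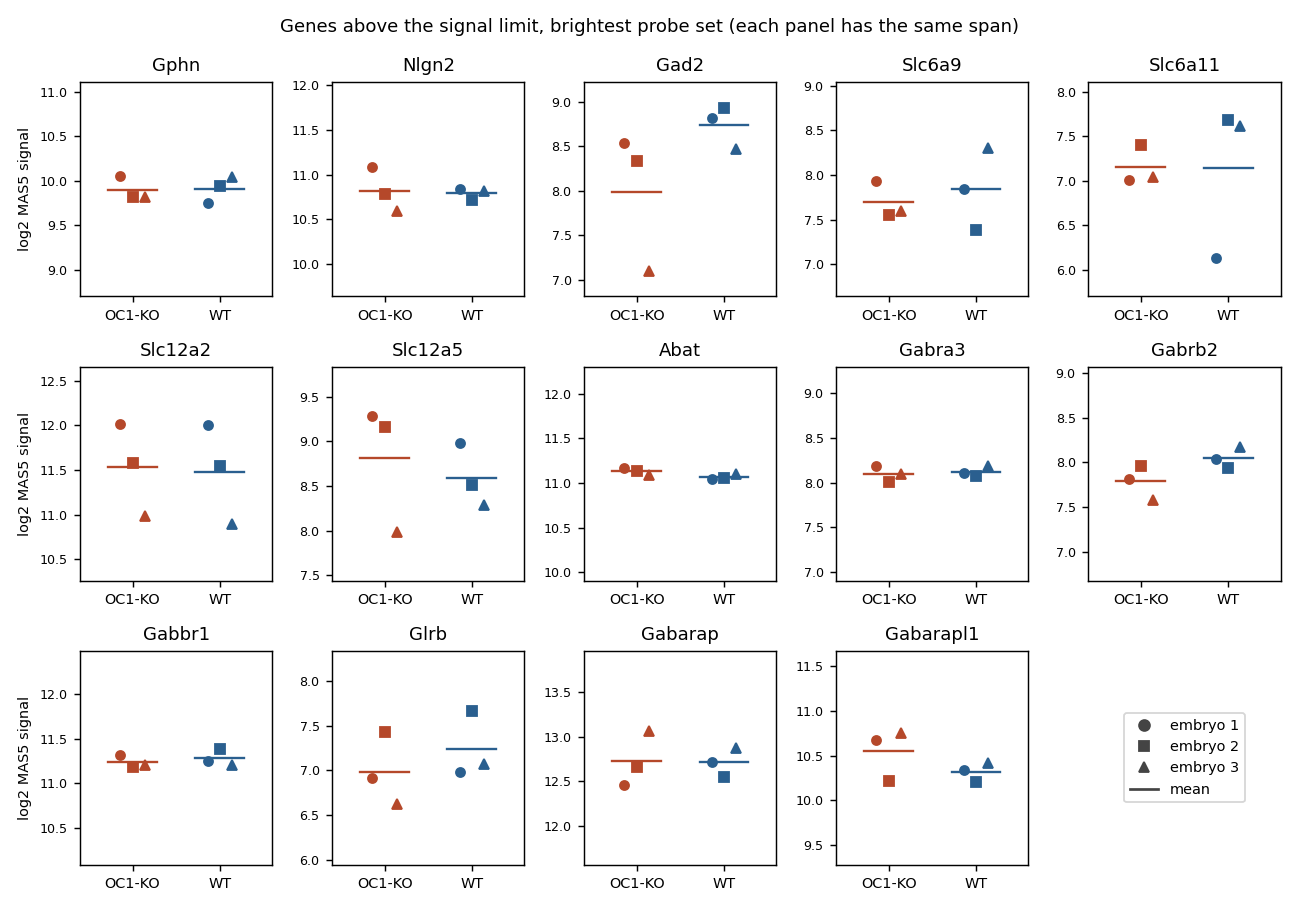
Log2 MAS5 signal (vertical axis) of the brightest probe set of each of the 14 genes above the signal limit, by genotype, with 1 point per array, the marker shape giving the embryo number and the line the mean of 3 arrays. The OC1-KO and WT points overlap in each of the 14 panels, and the lowest Gad2 point, at 7.10, is OC1-KO embryo 3.

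GABA is made from glutamate by Gad1 and Gad2 and is broken down by the transaminase Abat. Gad2 measured 8.54, 8.33 and 7.10 in OC1-KO embryos 1, 2 and 3, against 8.82, 8.93 and 8.47 in WT embryos 1, 2 and 3. The groups overlapped only through OC1-KO embryo 1, which lay above WT embryo 3, and OC1-KO embryo 3 was far below the other 5 arrays. The means were 7.99 ± 0.78 in OC1-KO and 8.74 ± 0.24 in WT (SD, n = 3 each), which is a difference of -0.75 on the log2 scale, with a standard error (SE) of 0.38 and a 95% interval of -1.65 to 0.15. By limma the unadjusted p was 0.0895 and the adjusted p 1.00, and the exact two-sided permutation test gave p = 0.2, where 0.1 is the smallest that 3 against 3 arrays allow.

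The embryo numbers carried structure of their own, since arrays with the same number deviated together across the genotypes. With the embryo number as a block, Gad2 alone of the 14 genes was lower at an unadjusted p under 0.05, where 2.81% of all probe sets were lower, and 0 of the 14 were higher (1.57% of all). Its unadjusted p by limma was 0.0193 and its adjusted p 0.999. OC1-KO was lower than WT in 3 of 3 pairs, with differences of -0.28, -0.60 and -1.37 in pairs 1, 2 and 3. The size of the Gad2 difference rested on OC1-KO embryo 3: it was -0.30 without that array, -1.02 (unadjusted p = 0.0346 by limma) without OC1-KO embryo 1, and -0.44 with both arrays of number 3 left out. The second Gad2 probe set was 8.52, 7.33 and 6.63 in OC1-KO against 7.69, 7.84 and 7.84 in WT, so that OC1-KO embryo 3 was again the lowest array but OC1-KO embryo 1 was the highest. Its difference was -0.29 with an SE of 0.44.

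Amacrine cells use GABA or glycine, and a list of 7 measured genes was taken as their markers. Its summed signal had log2 values of 13.18, 13.19 and 12.76 in OC1-KO embryos 1, 2 and 3, against 12.90, 13.11 and 13.09 in WT embryos. The list is not specific to amacrine cells, since the paper places Ptf1a also in horizontal cell precursors. The sum was lowest in OC1-KO embryo 3, but that array was the lowest for only 3 of the 7 markers, Ptf1a, Tfap2b and Neurod4. The summed photoreceptor precursor markers were also lowest there, at 13.82 in OC1-KO embryo 3 and 14.11 to 14.43 in the other arrays. That array was the lowest for 4 of the 5 markers, all but Thrb, so the low value was not confined to the amacrine list. The summed signal of 9 ganglion cell markers was instead highest there, at 16.33 in OC1-KO embryo 3 and 15.92 to 16.25 in the other arrays. The 5 measured horizontal cell markers summed to 11.34, 11.46 and 11.55 in OC1-KO against 11.55, 11.72 and 11.45 in WT. Onecut2, Septin4 and Prox1 made up most of that sum, since Lhx1 and Calb1 were dim. The paper describes Onecut2 RNA also in the area of progenitors and newly made neurons, so this sum is not specific to horizontal cells. Lhx1 (-1.30, SE 0.93), Onecut2 (-0.32) and Prox1 (-0.24) were lower in OC1-KO, while Calb1 (0.19) and Septin4 (0.26) were higher. The part of these cell types in the Gad2 values was not tested, and in whole tissue fewer cells of a type cannot be told apart from less RNA per cell.

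Abat was steady across the 6 arrays, at 11.17, 11.13 and 11.09 in OC1-KO against 11.04, 11.06 and 11.10 in WT. Its difference of 0.06 (SE 0.13) had a 95% interval of -0.25 to 0.38, the narrowest of the 14 genes. Gad1 was dim, with means of 4.57 in OC1-KO and 4.32 in WT on its brightest probe set, below the limit of 7.

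The promoters of the genes were read for the letters that Onecut proteins bind. Windows of 250 bases before to 50 bases after the start of a gene were available from RefSeq (GRCm38.p6) for 25 of the 29 genes, 33 windows in all, and were searched on both strands for the core ATTGAT. The related core ATCGAT, which reads alike on either strand, was searched beside it. A match was present in 3 of the windows, 9.09%, against 8.4% of the 32817 windows of all genes. The matches lay at Slc6a9, Gabarapl1 and Gabrg3. The windows of Gad2, of Gphn and of Gabarapl1, the genes with the lowest difference, with the scaffold role and with the highest difference, are shown in lower case. Capitals mark the one match among them, in Gabarapl1, where the core lies on the opposite strand, and a match describes letters only.
Gad2, chr2:22622077-22622376, plus strand: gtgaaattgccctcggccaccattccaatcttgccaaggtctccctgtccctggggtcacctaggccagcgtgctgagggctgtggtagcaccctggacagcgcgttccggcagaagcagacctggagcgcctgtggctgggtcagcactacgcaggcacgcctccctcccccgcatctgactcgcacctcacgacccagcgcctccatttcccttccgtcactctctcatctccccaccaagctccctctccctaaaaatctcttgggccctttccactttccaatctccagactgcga
Gabarapl1, chr6:129532942-129533241, plus strand: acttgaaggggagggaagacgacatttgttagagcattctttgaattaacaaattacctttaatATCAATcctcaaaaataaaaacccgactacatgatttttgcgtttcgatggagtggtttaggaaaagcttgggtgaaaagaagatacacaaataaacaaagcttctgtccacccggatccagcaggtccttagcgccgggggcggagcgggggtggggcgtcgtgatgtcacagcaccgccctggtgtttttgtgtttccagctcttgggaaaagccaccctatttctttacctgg
Gphn, chr12:78226405-78226704, plus strand: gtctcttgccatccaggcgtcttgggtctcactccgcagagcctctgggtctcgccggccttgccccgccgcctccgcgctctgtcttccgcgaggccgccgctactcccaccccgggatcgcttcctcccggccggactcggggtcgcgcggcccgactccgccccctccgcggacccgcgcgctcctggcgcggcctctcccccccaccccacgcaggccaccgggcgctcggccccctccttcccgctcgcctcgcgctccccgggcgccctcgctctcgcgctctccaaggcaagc

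Both transmitters are cleared or released through transporters. Slc6a9, which takes glycine back up, measured 7.93, 7.55 and 7.60 in OC1-KO embryos against 7.84, 7.38 and 8.30 in WT embryos, a log2 difference of -0.15 (SE 0.26), with the groups overlapping. A second probe set of Slc6a9 above the signal limit went the other way, at 0.12 (SE 0.27). Slc6a11, a GABA uptake transporter, measured 7.01, 7.40 and 7.04 in OC1-KO against 6.13, 7.68 and 7.62 in WT, a difference of 0.01 with the largest SE of the 14 genes, 0.42. WT embryo 1 was the lowest array, and without it the difference was -0.50 (unadjusted p = 0.0421, adjusted p = 1.00 by limma).

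The vesicular transporter Slc32a1, which loads GABA and glycine into synaptic vesicles, stayed just under the limit with means of 6.79 in OC1-KO and 6.67 in WT. Its values of 7.49, 7.05 and 5.83 in OC1-KO embryos spanned those of the WT embryos, 6.13, 7.04 and 6.84. Slc6a5, the glycine transporter of glycine-releasing neurons, was dimmer still, at 5.93, 5.69 and 4.13 in OC1-KO against 4.91, 4.24 and 2.09 in WT. OC1-KO was above WT in 3 of 3 pairs, and by brightest probe set Slc6a5 had the lowest p of the 14 dim genes, 0.138 by limma and 0.00833 with the block (adjusted p = 1.00 in both). Its other probe set differed by -1.20 in the opposite direction, and both lay below the limit.

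The chloride cotransporters Slc12a2, which brings chloride into the cell, and Slc12a5, which removes it, varied more between embryo numbers than between genotypes. Slc12a2 measured 12.02, 11.58 and 10.99 in OC1-KO embryos 1, 2 and 3, and 12.01, 11.54 and 10.90 in WT embryos 1, 2 and 3. Embryos with the same number thus differed by 0.01, 0.04 and 0.09, while the mean of both genotypes was 12.02, 11.56 and 10.95 for the numbers 1, 2 and 3. The difference between genotypes was 0.05, with an SE of 0.36 that became 0.11 once the number was a block.

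An F test of embryo number beside genotype, chosen after these values had been seen, gave Slc12a2 an adjusted p of 0.0415 by limma. It was the only one of the 14 genes past 0.05, where 5.32% of all probe sets tested were past it. The other probe sets of Slc12a2 did not share that order: the second measured 10.30, 8.93 and 9.86 in OC1-KO against 9.19, 9.32 and 10.14 in WT, and the third 9.27, 9.07 and 9.41 in OC1-KO against 8.99, 9.06 and 9.42 in WT, with an adjusted p for number of 0.252 on the third. Slc12a5 was 9.29, 9.16 and 7.99 in OC1-KO and 8.98, 8.51 and 8.29 in WT, lowest in the embryos numbered 3, with an adjusted p for number of 0.107. Its genotype difference of 0.21 (SE 0.37) was 0.63 without OC1-KO embryo 3 (unadjusted p = 0.0395, adjusted p = 1.00 by limma) and -0.02 without OC1-KO embryo 1, so that single arrays decided its value.

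**Figure D2:**
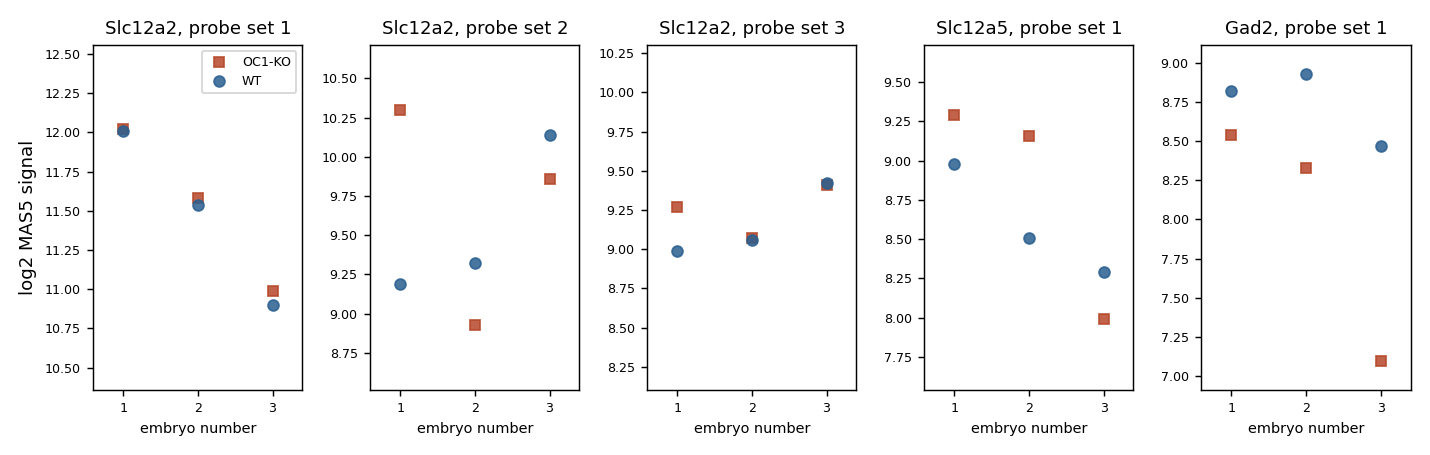
Log2 MAS5 signal (vertical axes, each panel with its own range) by embryo number (horizontal axis) for the 3 probe sets of Slc12a2 and the brightest of Slc12a5 and Gad2, squares for OC1-KO and circles for WT, 1 array each, probe sets being numbered by brightness. On the brightest Slc12a2 probe set both genotypes lie together at each number, at 12.02, 11.56 and 10.95 on average, which the other Slc12a2 probe sets do not show.

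The embryos numbered 3 also differed from the others in tissue composition markers. The summed signal of 8 lens markers was 7.91, 8.66 and 13.36 in OC1-KO embryos 1, 2 and 3 and 7.81, 7.28 and 14.31 in WT embryos. That of 5 red blood cell markers was 5.46, 9.48 and 14.54 in OC1-KO and 8.44, 6.46 and 14.01 in WT, and that of 6 pigment epithelium markers was 8.35, 8.82 and 10.78 in OC1-KO and 8.20, 7.60 and 9.26 in WT. The sum of 5 periocular mesenchyme markers was 8.51, 9.27 and 10.98 in OC1-KO and 9.16, 8.70 and 11.17 in WT. Each of these lists was highest in embryo 3 of either genotype, and the pigment list was also higher in OC1-KO within each number. Pmel, of that list, differed by 1.40 (SE 0.70), higher in 3 of 3 pairs. Its unadjusted p was 0.00258 with the block (adjusted p = 0.999 by limma), where 1.57% of all probe sets were higher. It passed the limit through OC1-KO alone, at 8.36 against 6.97 in WT. The part of these tissues in the Slc12a2, Slc12a5 and Gad2 values was not tested. All 5 measured genes of retinal identity were above the limit, with summed signals of 14.83 to 15.18 over the 6 arrays. OC1-KO embryo 3 had Xist at 14.13 and WT embryo 3 had Kdm5d at 9.91, so that the embryos of that pair differed in sex. Xist was 5.53 in OC1-KO and 5.39 in WT embryo 1, both male, and 14.01 and 13.81 in the embryos numbered 2, both female. Sex thus went with the number for embryos 1 and 2 and was not balanced between the genotypes. Its part in the values was not tested.

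Onecut1 itself was read on its brighter probe set at 9.02, 8.31 and 9.67 in OC1-KO embryos against 9.25, 8.76 and 9.00 in WT embryos, with no separation of the genotypes. Its other probe set measured 8.94, 7.51 and 9.30 in OC1-KO against 8.51, 8.43 and 9.30 in WT, a difference of -0.17 (SE 0.48), also with overlapping groups. The sources used here do not say whether either probe set reads the altered part of Onecut1, so neither checks the labels.

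Ionotropic GABA receptors are pentamers of subunits, most of which were dim at this age. Gabrb2 measured 7.82, 7.96 and 7.58 in OC1-KO embryos against 8.04, 7.94 and 8.17 in WT embryos. Only OC1-KO embryo 2 reached into the WT range. Its difference of -0.27 (SE 0.16) had an unadjusted p of 0.148 by limma and a 95% interval of -0.65 to 0.12, and the other probe sets of Gabrb2 above the limit differed by -0.02 and -0.17. Gabra3, an alpha subunit encoded on the X chromosome, was 8.19, 8.01 and 8.09 in OC1-KO and 8.11, 8.07 and 8.18 in WT, close together on arrays of both sexes. Its difference was -0.02 (SE 0.14).

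The other measured GABA-A subunits lay below the limit in both genotypes. Among the alpha subunits, Gabra2 averaged 6.15 in OC1-KO and 6.23 in WT, Gabra4 5.74 in OC1-KO and 5.66 in WT, and Gabra5 4.81 in OC1-KO and 4.67 in WT. Gabra6 averaged 4.62 in OC1-KO and 3.14 in WT, where WT embryo 1 stood at 0.83. The beta subunit Gabrb1 averaged 5.53 in OC1-KO and 5.41 in WT. The gamma subunit Gabrg1 averaged 3.71 in OC1-KO and 4.08 in WT on its brightest probe set. Its other probe set went the opposite way, at 4.03, 2.88 and 4.51 in OC1-KO against 1.54, 3.05 and 2.50 in WT, overlapping groups with a difference of 1.44 (SE 0.57) and the lowest unadjusted p of all 69 probe sets, 0.0474 by limma (adjusted p = 1.00). Gabrg3 averaged 5.42 in OC1-KO and 4.40 in WT. The delta subunit Gabrd averaged 4.57 in OC1-KO and 3.33 in WT. For Gabra6, Gabrg3 and Gabrd the difference between the means was smaller than the SD of the WT arrays, as for Gabrd at 3.23, 5.77 and 4.70 in OC1-KO against 2.72, 1.68 and 5.58 in WT. No dim gene had groups that did not overlap by its brightest probe set, 0 of 14. The share over all dim probe sets was not counted, so this count cannot be read as a result about the genes. Of the 29 further probe sets below the limit, 16 differed in sign from the brightest one of their gene.

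The G protein-coupled GABA-B receptor was represented by Gabbr1, the subunit that binds GABA, which measured 11.32, 11.18 and 11.20 in OC1-KO embryos against 11.25, 11.39 and 11.20 in WT embryos. Its difference of -0.05 (SE 0.14) was accompanied by 0.09 and 0.07 on the other probe sets of the gene above the limit. Glycine receptors combine alpha subunits with the beta subunit Glrb, which binds gephyrin. Glrb was 6.91, 7.43 and 6.62 in OC1-KO against 6.98, 7.66 and 7.07 in WT, lower in 3 of 3 pairs, with differences of -0.07, -0.23 and -0.44. The difference of -0.25 (SE 0.27) had an unadjusted p of 0.394 by limma and 0.0997 with the block. Glrb passed the limit through WT alone, the genotype where it was higher.

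The Glrb probe set carries the suffix that Affymetrix gives to probes which may also bind similar sequences, so its signal may include other transcripts, and its second probe set, dim, also differed by -0.25 (SE 0.35). Of the alpha subunits, Glra2, on the X chromosome, lay closest to the limit at 6.81 in OC1-KO and 6.88 in WT, while Glra1 was 5.05 in OC1-KO and 5.23 in WT and Glra3 was 3.73 in OC1-KO and 3.35 in WT. Of the 14 genes above the limit, Gad2 and Glrb were lower in OC1-KO in 3 of 3 pairs, a state of 13.1% of all probe sets tested, and Slc12a2 and Gabarapl1 were higher in 3 of 3 (10.3% of all). Since Glrb was tested only through its higher WT values, its place in this count is no support for a change.

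Gephyrin, encoded by Gphn on chromosome 12, forms the lattice that anchors glycine and GABA-A receptors and also catalyses the last steps of molybdenum cofactor synthesis. Its brightest probe set measured 10.06, 9.82 and 9.82 in OC1-KO embryos 1, 2 and 3, against 9.75, 9.94 and 10.04 in WT embryos. The groups overlapped fully, with means of 9.90 ± 0.14 in OC1-KO and 9.91 ± 0.15 in WT (SD, n = 3 each) and a difference of -0.01 (SE 0.16, 95% interval -0.38 to 0.36). The next probe set measured 9.75, 9.72 and 10.02 in OC1-KO against 9.65, 10.03 and 10.03 in WT, a difference of -0.07 (SE 0.18). It too showed no separation of the genotypes.

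The dimmest of the 3 Gphn probe sets was the exception, at 8.96, 9.00 and 9.13 in OC1-KO embryos against 8.70, 8.82 and 8.72 in WT embryos. The groups did not overlap, and OC1-KO was higher in 3 of 3 pairs, by 0.26, 0.18 and 0.41. The means were 9.03 ± 0.09 in OC1-KO and 8.75 ± 0.07 in WT (SD, n = 3 each), a log2 difference of 0.28 (SE 0.14), or 1.22-fold, with a 95% interval of -0.04 to 0.61. By limma the unadjusted p was 0.0805, or 0.0526 with the block, and the adjusted p was 1.00, while the exact permutation test gave p = 0.1, the smallest the design allows. This probe set was singled out by the study from these same arrays, so its separation is not independent evidence of a change in Gphn.

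Without any 1 array the difference of this probe set stayed between 0.23 and 0.32. The sources used here do not give the part of the Gphn transcript that each probe set reads, and the difference between the probe sets was not tested. Counted by the brightest probe set, 0 of the 14 genes had OC1-KO values all above WT (1.70% of all probe sets tested) and 0 had them all below (1.86% of all).

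**Figure D3:**
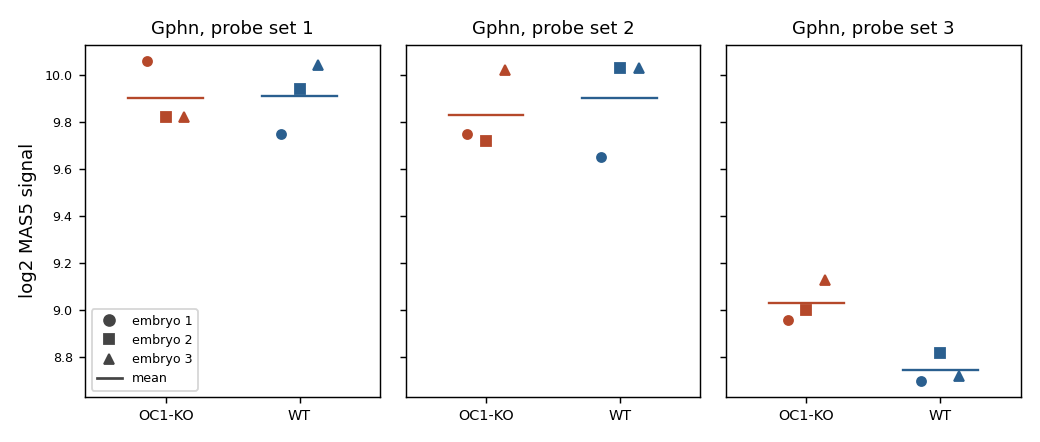
Log2 MAS5 signal (shared vertical axis) of the 3 Gphn probe sets by genotype, with 1 point per array, the marker shape giving the embryo number and the line the mean of 3 arrays. Probe sets are numbered by brightness. The genotypes overlap on the first and second, and on the third the OC1-KO arrays, at 8.96 to 9.13, all lie above the WT arrays, at 8.70 to 8.82.

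Around gephyrin, Nlgn2, the adhesion protein of inhibitory postsynapses, measured 11.08, 10.78 and 10.59 in OC1-KO embryos against 10.84, 10.72 and 10.82 in WT embryos. The difference was 0.02 (SE 0.17). Gabarap, an ATG8 family protein that binds GABA-A receptor gamma subunits, was 12.46, 12.66 and 13.07 in OC1-KO and 12.72, 12.55 and 12.88 in WT, a difference of 0.01 (SE 0.20). Its relative Gabarapl1 was 10.68, 10.22 and 10.75 in OC1-KO against 10.34, 10.20 and 10.42 in WT. It was higher in 3 of 3 pairs, by 0.34, 0.01 and 0.33, and its difference of 0.23 (SE 0.19) had an unadjusted p of 0.264 by limma. By its suffix this probe set reads more than 1 transcript, and the other one of Gabarapl1 differed by 0.07 (SE 0.36).

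**Figure D4:**
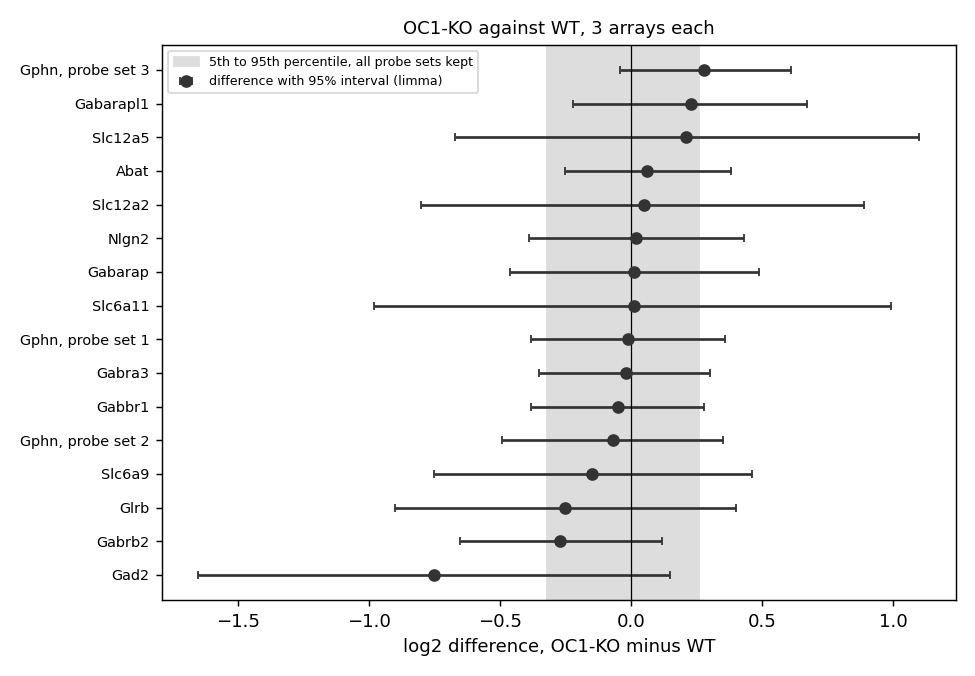
Log2 difference, OC1-KO minus WT (horizontal axis), with its 95% limma interval for the 14 genes by their brightest probe set and for the other 2 Gphn probe sets, from 3 arrays per genotype. The shaded band spans -0.32 to 0.26, the 5th to 95th percentile of all probe sets tested, and each of the intervals includes 0, also that of Gad2, at -1.65 to 0.15.

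The wider pathway was followed through 76 further genes, of which 65 had a probe set and 44 lay above the limit. Of these, 21 were higher and 23 lower in OC1-KO, with a median of -0.00, and 0 passed an adjusted or unadjusted p under 0.05 by limma. The 6 measured receptor subunits outside the set of 29 were all dim, the brightest being Gabrp at 6.21 in OC1-KO against 6.42 in WT, and Gabre at 5.09 in OC1-KO against 4.97 in WT. Of 9 transport and metabolism genes 3 were higher and 6 lower, with Glul, which makes glutamine, at 12.16 in OC1-KO against 12.21 in WT, and Gcsh, of the glycine cleavage system, at 11.96 in OC1-KO against 11.92 in WT.

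Of 6 chloride genes 4 were higher and 2 lower. Slc12a4, counted among these 4 and the 21 above, passed the limit through OC1-KO alone, at 7.02 against 6.84 in WT. The kinase Wnk1 was at 12.50 in OC1-KO against 12.47 in WT, and the kinase Stk39 at 10.10 in both. Of 12 genes of the postsynapse and partners of gephyrin 6 were higher and 6 lower, with the dynein light chain Dynll1 at 14.34 in OC1-KO against 14.31 in WT, and the profilin Pfn2 at 13.77 in OC1-KO and 13.67 in WT. Of 13 genes of receptor trafficking and the ATG8 family 4 were higher and 9 lower, with radixin, Rdx, at 12.66 in OC1-KO against 12.63 in WT, and Map1lc3b at 12.33 in OC1-KO and 12.36 in WT. Of the auxiliary subunits of the GABA-B receptor only Kctd8 lay above the limit, at 9.95 in OC1-KO and 9.89 in WT. The dim Kctd16, named after its values had been seen, was 6.61, 6.71 and 6.75 in OC1-KO against 5.06, 6.59 and 5.49 in WT, without overlap (unadjusted p = 0.0600 by limma over all probe sets). How many dim probe sets lack overlap was not counted.

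Of the 7 measured genes of molybdenum cofactor pathways, the branch that gephyrin also serves, 3 lay above the limit. These 3 were all higher, with a median of 0.09, but Mocs2 (0.08, SE 0.26) and Mocs3 (0.09, SE 0.22) differed by less than their SE. The dim genes went both ways, with Mocs1 at 0.21, Mocos at 0.06, Aox1 at -0.20 and Xdh at -0.67. Suox, the sulfite oxidase that uses the cofactor, was the only one of the 44 with an unadjusted p under 0.05 with the block (0.0387, adjusted p = 0.999 by limma), where 1.57% of all probe sets were higher. It measured 8.47, 8.47 and 8.81 in OC1-KO against 8.03, 8.21 and 8.58 in WT, with overlapping groups and a difference of 0.31 (SE 0.20).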

How the data were processed

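Total RNA from isolated retinas of 3 OC1-KO and 3 WT embryos was amplified, labelled with biotin and hybridised to Affymetrix GeneChip mouse genome arrays, 1 array per embryo. The authors deposited MAS5 intensity values on a linear scale, after background correction and scaling of each array to a 2% trimmed mean of 500, made with the affy package; no version is given in the sources used here. Groups came from the sample labels. Log2 was taken here with no pseudocount, 64 control probe sets were left out of the table, and the methods' limit was kept: a mean log2 signal over 7 in either genotype, which left 20888 of 45037 probe sets. Between 43.4% and 46.7% of the probe sets of an array lay above 7, the median signal of an array was 85 to 104, and the number of arrays limits the precision.

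Probe sets were named through the platform annotation, with 34945 mapping to 1 symbol and 34741 of these matched to the current gene table by Entrez ID. The genotypes were compared with limma 3.58.1 (R 4.3.3), fitted by lmFit and moderated by eBayes with no trend on intensity, and p-values were adjusted by Benjamini-Hochberg across the 20888 probe sets. Dim genes were read from a fit over all probe sets. Pathway counts, figures and exact permutation tests were made in Python 3.11.15 with pandas 2.3.3 and matplotlib 3.10.9, and the fits were tested on simulated data. The methods' t-test, a replicate block, a pseudocount of 16, quantile normalization, no signal limit, an intensity trend, each array left out and the embryos numbered 1 and 2 alone were the alternatives.

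Arrays of the same embryo number in the 2 genotypes correlated at 0.509, 0.575 and 0.671 after the genotype means were removed, and arrays of different numbers at -0.438 to -0.0371. Removing the means makes positive same-number correlations push the others below 0, so the negative values are not separate evidence. By the same-number correlations the numbers pair the arrays, and the labels state no pairs. The text names all 29 genes, and other probe sets of a gene whose direction differed where both lay above the limit. Outside that rule it also gives further probe sets of Gad2, Gabrb2, Slc12a2, Gabarapl1 and Glrb with the same direction, but not the second of Nlgn2. Of each pathway list it names the genes at an unadjusted p under 0.05 with or without the block, otherwise the 2 brightest. Of the marker lists, Pmel alone met that p. Most lists are given as sums, but those of endothelium, macrophages and housekeeping genes are left out. The second probe sets of Slc6a5 and Gabrg1, Kctd16 and Slc12a4 were named after their values had been seen. So were the molybdenum genes other than Suox, the single horizontal markers and Thrb. The genes and lists were chosen with earlier results of these data known.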

Additional observations from a re-analysis of the deposited data

How the results depend on the processing

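The count of genes past an adjusted p of 0.05 was 0 in each direction under every alternative run. At an unadjusted p under 0.05 the count of lower genes was 1 with the replicate block (Gad2), and leaving out 1 array gave 0 to 1 lower (Gad2 without OC1-KO 1, Slc6a11 without WT 1) and 0 to 1 higher (Slc12a5 without OC1-KO 3). The block changed no other call among the 14 genes above the signal limit. By the methods' t-test the dimmest Gphn probe set had an unadjusted p of 0.0107, and 0 probe sets passed after adjustment. The adjusted p of Gad2, Slc12a5 and each Gphn probe set stayed at 0.999 to 1.00.

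Of 16 gene results, 9 changed sign under some alternative, 4 of them only when 1 array was left out, and 7 never did; the cause was not tested. In the embryos numbered 1 and 2 alone the log2 difference was 0.13 for Slc6a9, 0.01 for Gabra3, -0.08 for Gabarap and 0.10 for the brightest Gphn probe set. With a pseudocount of 16 Slc6a11 was at -0.01, and with quantile normalization Gabarap was at -0.02 and that Gphn probe set at 0.01. Leaving out 1 array at a time gave -0.11 to 0.14 for Nlgn2, -0.38 to 0.08 for Slc6a9, -0.50 to 0.27 for Slc6a11, -0.24 to 0.32 for Slc12a2, -0.02 to 0.63 for Slc12a5, -0.07 to 0.02 for Gabra3, -0.09 to 0.01 for Gabbr1, -0.16 to 0.15 for Gabarap and -0.09 to 0.06 for the brightest Gphn probe set. Gad2 ranged over -1.02 to -0.30. Dim probe sets lie near background, so their differences are the least certain.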
